A study of Arabidopsis thaliana with 9 samples.

Results

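The gene described here is OSM34 (locus AT4G11650), which encodes the osmotin-like protein of Arabidopsis thaliana. It was picked by its locus after its values on these arrays were known, and it is 1 of 16550 genes that could be named from a single row of the deposited table. A single row of that table carries OSM34, and no row lists it together with a second gene. Its levels and ranks are therefore given as a description, and no test is attached to them.

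The arrays profiled detached leaves of ecotype Col-0 aged 30 days, with 3 biological replicates in each of 3 groups. The control leaves lay in MS medium with 0.05% DMSO. The treated leaves lay in MS medium with 50 µM of BrvC, a brevicompanine, which is a class of fungal alkaloid, for 6 h or for 48 h. Incubation was in the dark, and each sample held 10 to 15 leaves. The labels name 1 control group and do not give its time in the dark. BrvC and time in the dark therefore cannot be told apart in either comparison with control. Between 6 h and 48 h, time with BrvC and time in the dark differ together and cannot be told apart either. Values are log2 signals, on which a difference of 1 is a doubling of array signal. Array medians ran from 3.80 to 3.93 in control, from 4.17 to 4.25 at 6 h and from 4.00 to 4.10 at 48 h. Of 8 mesophyll markers 2 were measured, the Calvin cycle enzyme PRK and the Rubisco activase RCA, and both gave signal on every array.

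Osmotins are members of the thaumatin-like family, the group 5 of the pathogenesis-related (PR) proteins. Tobacco osmotin, after which the family branch is named, accumulates in cells adapted to salt, and it permeabilizes the membranes of fungi. Osmotin genes of plants are known to respond to salt, abscisic acid, ethylene and infection. No sequence of OSM34 is printed, since none of the files or tables used here holds one.

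OSM34 gave a high signal in control leaves, a much lower one after 6 h and a high one again after 48 h. In control leaves the log2 signal was 11.58, 12.11 and 11.76 in replicates 1, 2 and 3. After 6 h with BrvC it was 6.84, 6.78 and 7.04. After 48 h with BrvC it was 12.44, 12.37 and 12.59. The 3 arrays at 6 h lay far below all other arrays, and the 3 arrays at 48 h lay just above the 3 controls, so that no group overlapped another.

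**Figure D1:**
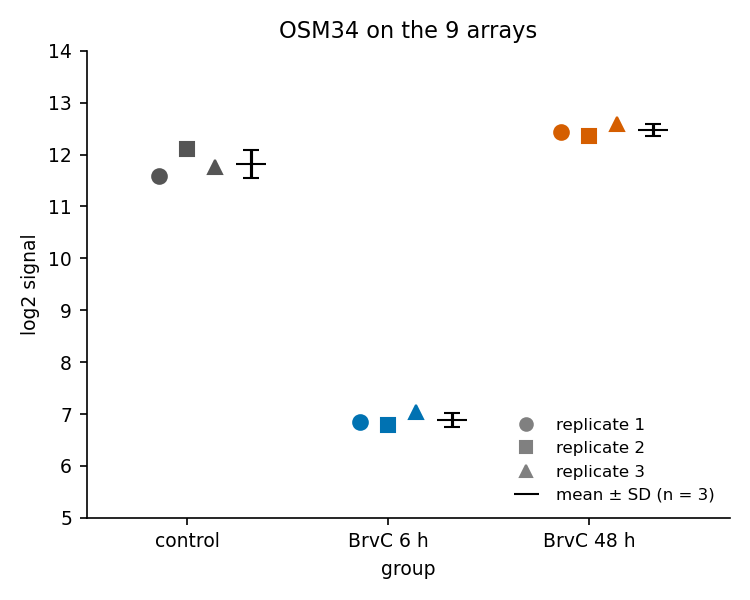
Log2 signal of OSM34 (vertical axis) on each array of the control, BrvC 6 h and BrvC 48 h groups (horizontal axis). Symbols mark the replicate number and the bar beside each group is the mean ± SD (n = 3). The 6 h arrays sit near 6.89, the controls near 11.82 and the 48 h arrays near 12.47.

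The group means were 11.82 ± 0.27 (SD, n = 3) in control, 6.89 ± 0.14 at 6 h and 12.47 ± 0.12 at 48 h. The order of the levels was thus 6 h, control, 48 h. The residual SD of OSM34 over the 9 arrays was 0.19 on the log2 scale, and 74.9% of the 16550 genes had a larger one (median 0.25). The spread was widest among the controls, where replicate 2 was the highest, and their range of 0.53 was wider than the ranges of 0.26 at 6 h and 0.23 at 48 h. In bulk leaf RNA, fewer cells with the transcript and less transcript per cell cannot be told apart.

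At 6 h OSM34 was lower than in control by a log2 difference of -4.93 (SE 0.18), a 30.4-fold lower array signal. The lowest control array lay 4.54 above the highest 6 h array. All 9 pairings of a treated with a control array had the same direction, with differences from -5.32 to -4.54. Groups that do not overlap were found for 40.3% of all genes in this comparison. The difference of OSM34 was the largest fall among the 16550 genes, and also the largest difference in either direction. The next falls were those of AT1G73610 (-4.74, SE 0.25) and AT3G51540 (-4.74, SE 0.23), both of which carry a locus name alone in the reference table. The median size of a difference over all genes was 0.33. In the full table of 38408 rows, most of which have no gene listed, OSM34 ranked 16. Of the 15 rows that fell further, 14 had no gene listed and the other listed several genes.

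Between 6 h and 48 h with BrvC the signal of OSM34 differed by 5.58 (SE 0.18), a 47.7-fold higher array signal at 48 h. The pairings of a 48 h with a 6 h array ran from 5.32 to 5.81, and the gap between the groups was 5.32. Groups that do not overlap made up 37.3% of genes here. Time with BrvC and time in the dark cannot be told apart in this comparison. OSM34 had the largest rise but 1, after AT1G19530 (5.61, SE 0.25) and before AT4G39675 (5.42, SE 0.21). These neighbours in the ranking differed from OSM34 by less than their standard errors, and OSM34 ranked 1 after renewed quantile normalization. Since the 6 h arrays enter both this comparison and the comparison of 6 h with control, the values share those arrays.

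At 48 h OSM34 stood above control by 0.65 (SE 0.18), a 1.57-fold higher array signal. The single pairings ran from 0.26 to 1.01, and the gap between the highest control and the lowest 48 h array was 0.26. Groups without overlap made up 25.1% of all genes in this comparison. The median size of a difference over all genes was 0.24 in this comparison. The difference of OSM34 ranked 1052 among the rises, and 12.8% of the 16550 genes differed from control by as much or more in either direction. The genes next to it in rank were AT5G46030 (0.65, SE 0.24) and AT2G46060 (0.65, SE 0.20). They were named for their rank alone, so no test is attached to them. The rank of OSM34 ran from 690 without control replicate 2 to 1642 without control replicate 1. After each array was centred on its median, the difference was 0.45 and the groups still did not overlap, with the highest control at 12.33 and the lowest 48 h array at 12.39.

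**Figure D2:**
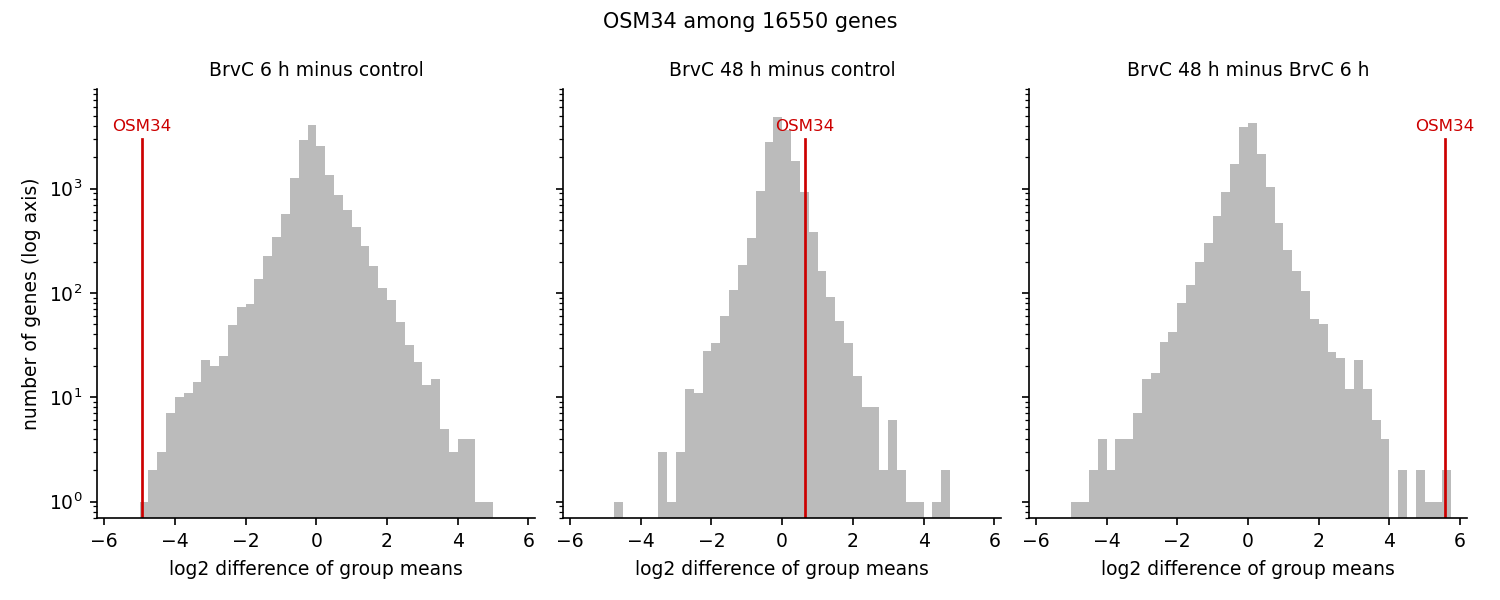
Number of genes (vertical log axis) by log2 difference of group means (horizontal axis) for 16550 genes in each of the 3 comparisons. The red line marks OSM34, at -4.93 for 6 h minus control, at 0.65 for 48 h minus control and at 5.58 for 48 h minus 6 h.

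The thaumatin-like relatives of OSM34 were followed to see whether the family shared its profile. The family was listed by locus from general knowledge, since the reference table describes few of its members. The list took in thaumatin-like kinases too, which are not marked apart from the other relatives here. Of the other 23 loci listed, 19 were measured, and PR5 was among the loci not analysed here. At 6 h 3 of the 19 relatives rose and 1 fell (limma, Benjamini-Hochberg adjusted p under 0.05 over all genes), beside 14.2% of all genes higher and 13.2% lower. The median log2 difference of the relatives was 0.01, and that of all genes was -0.10. The fall of OSM34 was far outside the range of its relatives, which ran from -0.69 to 2.65. Only AT1G70250, AT1G75800, AT4G18250 and AT5G24620 had control means (7.28 to 8.48) at which a fall of that size could appear. A filter on low values, a signal above the median of the table (4.03) on at least 3 arrays, was passed by 8 of the 19. The other 11 had low signals, where differences are compressed.

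The relative with the largest change at 6 h, AT4G36010, moved in the direction opposite to OSM34. Its log2 signal was 4.47, 4.18 and 4.49 in control, 7.11, 6.91 and 7.06 at 6 h, and 4.62, 3.47 and 4.00 at 48 h. The 6 h arrays lay above all others, while control and 48 h arrays overlapped. The rise at 6 h was 2.65 (SE 0.24, limma adjusted p = 3.83e-06).

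AT4G18250 followed the same course with a smaller rise. It had 7.34, 7.29 and 7.21 in control, 8.67, 8.72 and 8.64 at 6 h, and 7.15, 7.47 and 7.79 at 48 h. The rise was 1.396 (SE 0.18, limma adjusted p = 6.7e-05). AT4G38670 rose by 0.76 (SE 0.17, limma adjusted p = 0.00384), a call that was lost after centring or renewed quantile normalization (0.40 and 0.39).

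AT1G70250 was the only measured relative to fall with OSM34 at 6 h in the test with 9 arrays, by -0.69 (SE 0.17, limma adjusted p = 0.00633). It had 7.28, 7.22 and 7.34 in control, 6.70, 6.61 and 6.43 at 6 h, and 7.20, 6.84 and 6.98 at 48 h. Its 6 h arrays lay below all others, as those of OSM34 did, but with a far smaller difference. After centring, AT1G20030 (-0.65), AT2G24810 (-0.70) and AT5G40020 (-0.68) were also called lower at 6 h. Centring moved the median of all genes to -0.46, and 8308 of the 16550 genes were then called, 17.3% of them higher. Most calls over all genes were thus lower, so these added calls do not set the relatives apart from other genes. Without control replicate 3 the count of relatives changed at 6 h was 7, with AT5G24620 (0.79) called higher and AT2G24810 (-0.60) and AT5G40020 (-0.55) called lower in addition.

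At 48 h 1 of the 19 relatives differed from control, and it was lower, beside 5.43% of all genes higher and 5.22% lower. No relative was higher by limma, and 1 was at an unadjusted p under 0.05. The gene that fell was AT1G75800, with 8.84, 8.26 and 8.34 in control, 8.62, 8.74 and 8.72 at 6 h, and 7.38, 7.22 and 7.26 at 48 h. Its 6 h arrays lay within the range of the controls and its 48 h arrays below it, by -1.19 (SE 0.18, limma adjusted p = 0.000906). Without control replicate 3, AT2G24810 (-0.68) was called lower as well. The median of the relatives was -0.09, and that of all genes was -0.06.

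Between 48 h and 6 h 3 relatives were lower and none was higher by limma, beside 10.7% of all genes lower and 9.62% higher, and 2 were higher at an unadjusted p under 0.05. The 3 were AT4G36010 (-3.00, SE 0.24), AT1G75800 (-1.41, SE 0.18) and AT4G18250 (-1.20, SE 0.18), all opposite to OSM34. The median was -0.07, and that of all genes was 0.02. After centring the count was 5, with AT1G20030 (0.60) and AT1G70250 (0.59) called higher. Centring moved the median of all genes to 0.18 here, and 66.0% of the 3703 genes then called were higher. AT1G70250 was also called higher with the filter on low values (0.43, limma adjusted p = 0.0478). The same call came after renewed quantile normalization (0.49, limma adjusted p = 0.0489).

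The remaining relatives stayed without a call in all 3 comparisons with 9 arrays. ATLP-1 had differences of -0.16 at 6 h and 0.23 at 48 h against control. AT5G24620 had 0.61 and 0.42, AT1G20030 had -0.29 and 0.14, AT1G19320 had 0.03 and -0.31, and AT1G73620 had -0.38 and -0.06. AT1G75050 had 0.01 and 0.06, AT1G77700 had 0.09 and 0.19, AT2G24810 had -0.34 and -0.43, and AT2G17860 had -0.10 and -0.17. AT2G28790 had 0.08 and -0.18, AT4G36000 had -0.09 and 0.18, AT4G38660 had 0.17 and -0.17, AT5G02140 had -0.21 and -0.09, and AT5G40020 had -0.33 and -0.32. None of these values came near the difference of OSM34 at 6 h. Among these genes only AT5G24620 had a control signal (mean 7.88) at which such a fall could appear. Close copies within the family may share probes, so that values of single relatives are uncertain.

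**Figure D3:**
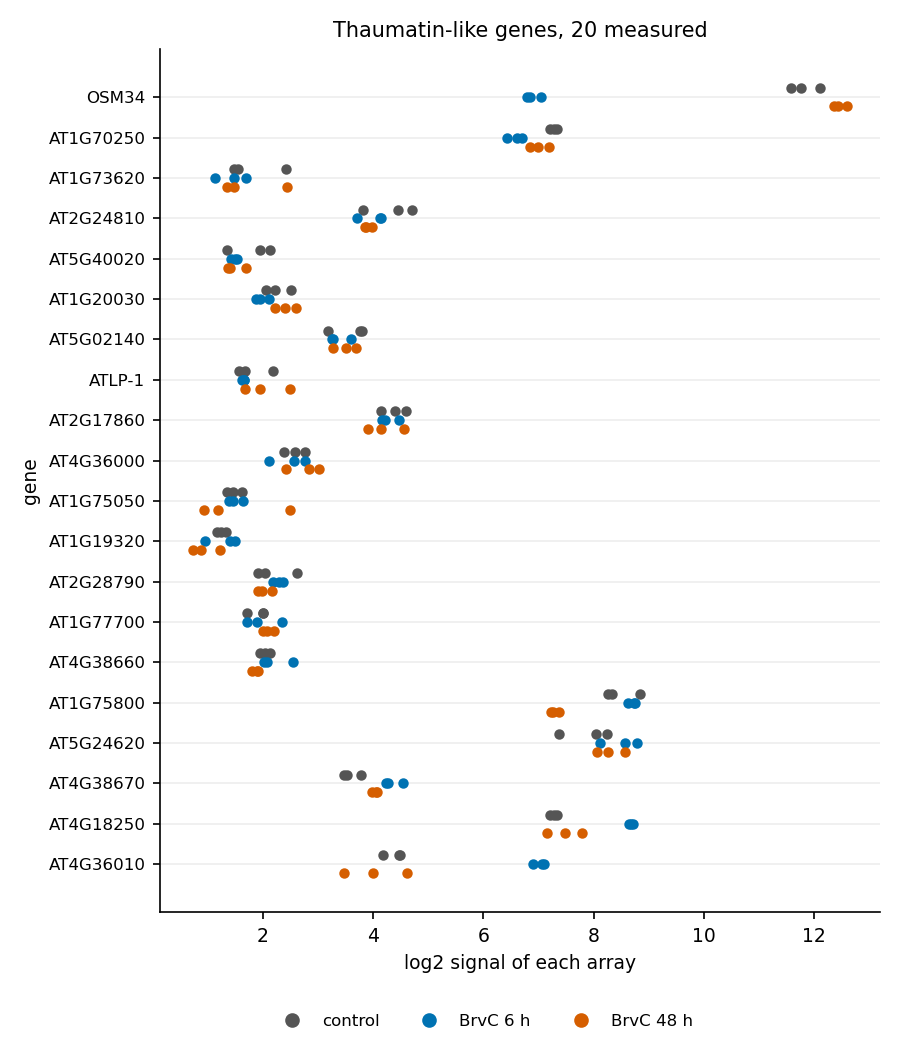
Log2 signal of every array (horizontal axis) for the 20 measured thaumatin-like genes (rows, ordered by their difference at 6 h), with control in grey, BrvC 6 h in blue and BrvC 48 h in orange. OSM34 is the gene whose 6 h arrays lie far to the left of its own controls, and AT4G36010 is the gene whose 6 h arrays lie farthest to the right of its own controls.

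Other genes linked to the known settings of osmotins were taken from 5 lists. Of the other PR and antimicrobial proteins 9 of 19 were measured, and 3 of the 9 fell at 6 h while none rose, not even at an unadjusted p under 0.05, beside 13.2% of all genes lower and 14.2% higher. The list median was -0.05, and that of all genes was -0.10. The filter on low values was passed by 2 of the 9, and the other 7 had low signals, where differences are compressed. Salt, drought and abscisic acid genes rose in 3 and fell in 1 of 6 measured cases at 6 h, out of 35 listed, beside the same 14.2% of all genes higher and 13.2% lower, with a list median of 1.56. The 2 measured darkness and starvation genes of 26 listed both fell at 6 h, beside 13.2% of all genes, and were both higher at 48 h than at 6 h, beside 9.62%. Of 22 senescence genes 3 were measured and 1 fell, and of 31 ethylene and jasmonate genes 1 was measured and fell, beside the same 13.2% of all genes. The lists are so thinly covered that the measured genes need not stand for them.

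Among the PR proteins, the plant defensin PDF1.4 fell at 6 h and was higher at 48 h than at 6 h, the directions seen for OSM34. It had 9.77, 10.02 and 10.23 in control, 8.56, 8.15 and 8.76 at 6 h, and 9.42, 10.01 and 9.98 at 48 h. The 6 h arrays lay below all others, with a fall of -1.52 (SE 0.22, limma adjusted p = 0.000166) and a difference of 1.31 (SE 0.22, limma adjusted p = 0.000747) between 48 h and 6 h. The defensin PDF1.2b (-1.08, SE 0.32) and the chitinase CHI (-0.67, SE 0.20) also fell at 6 h. The call of PDF1.2b was lost without control replicate 2 (-0.67) and without 6 h replicate 1 (-1.06) or 3 (-0.91). With every row of the table tested PDF1.2b was not called either (limma adjusted p = 0.0556). The call of CHI was lost without control replicate 2 (-0.53) and without 6 h replicate 2 (-0.59). At 48 h none of the 9 PR proteins was called against control by limma, beside 5.43% of all genes higher and 5.22% lower, and 1 was at an unadjusted p under 0.05. This was PDF1.2b (-0.996), which was called with the replicate number as a block (limma adjusted p = 0.0053) and without control replicate 3 (-1.24).

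Of the 6 measured salt, drought and abscisic acid genes, 3 rose at 6 h, 1 fell as OSM34 did, and 2 were not called. The cold-inducible KIN2 had 5.35, 6.27 and 6.28 in control, 9.86, 9.52 and 10.41 at 6 h, and 5.89, 5.79 and 6.04 at 48 h, a rise of 3.96 (SE 0.27, limma adjusted p = 3.03e-07) at 6 h. The dehydrin LTI30 had 1.65, 1.94 and 2.33 in control, 5.05, 5.30 and 5.26 at 6 h, and 2.72, 2.45 and 2.51 at 48 h, a rise of 3.23 (SE 0.19) at 6 h. LTI30 lay above the median of the table only at 6 h, and its low signals in the other groups are compressed, so that the size of its rise is uncertain. Both had their highest arrays at 6 h, when OSM34 had its lowest. COR15A, a cold-regulated protein of the chloroplast stroma, rose by 2.56 (SE 0.39), and the dehydrin COR47 fell (-0.75, SE 0.17). Against control at 48 h none of the 6 was called by limma, beside 5.43% of all genes higher and 5.22% lower, and 2 were at an unadjusted p under 0.05. LTI30 was called there without control replicate 3 (0.77). Between 48 h and 6 h 4 were lower, beside 10.7% of all genes, namely KIN2 (-4.02), LTI30 (-2.64), COR15A (-2.34) and COR15B (-0.75), the last named after its value was seen. COR15B did not pass the filter on low values, with which the count was 3. COR15A had means of 3.52 in control and 3.74 at 48 h, under the median of the table. The sizes of the differences of COR15A and COR15B are therefore uncertain.

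The 2 measured starvation genes fell at 6 h as OSM34 did. The leucine breakdown enzyme MCCB had 10.06, 9.74 and 9.42 in control, 6.03, 6.23 and 5.90 at 6 h, and 9.18, 9.10 and 8.65 at 48 h. The asparaginase ASPGB1 had 6.95, 7.42 and 8.26 in control, 3.87, 4.11 and 4.43 at 6 h, and 5.91, 6.50 and 6.95 at 48 h. Both were lowest at 6 h, and both stayed below the control mean at 48 h, where OSM34 was above it. The falls at 6 h were -3.69 (SE 0.21) and -3.41 (SE 0.32), and the smaller differences from control at 48 h (-0.76 and -1.09) were called with 9 arrays. The call of MCCB at 48 h was lost without control replicate 1 (-0.60) or 2 (-0.76), 6 h replicate 1 (-0.76), or 48 h replicate 2 (-0.82) or 3 (-0.60). That of ASPGB1 was lost without any single array (-1.15 to -0.73) other than control replicate 1 and 48 h replicate 3.

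SAG29, the sugar transporter SWEET15 of senescing leaves, fell by -0.63 (SE 0.20) at 6 h and was higher at 48 h than at 6 h by 0.81 (SE 0.20), at low signals. The call at 6 h was lost without control replicate 2 (-0.59) or 3 (-0.57) and without 6 h replicate 1 (-0.58) or 2 (-0.59). EIN3, the transcription factor of ethylene responses, had 10.63, 10.58 and 10.66 in control, 9.89, 9.80 and 9.85 at 6 h, and 10.72, 10.56 and 10.38 at 48 h. Its 6 h arrays lay below all others, with a fall of -0.78 (SE 0.16, limma adjusted p = 0.00218). The senescence genes WRKY6 (0.17 at 6 h and 0.24 at 48 h) and SAG101 (0.34 and 0.36) had no call against control.

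**Figure D4:**
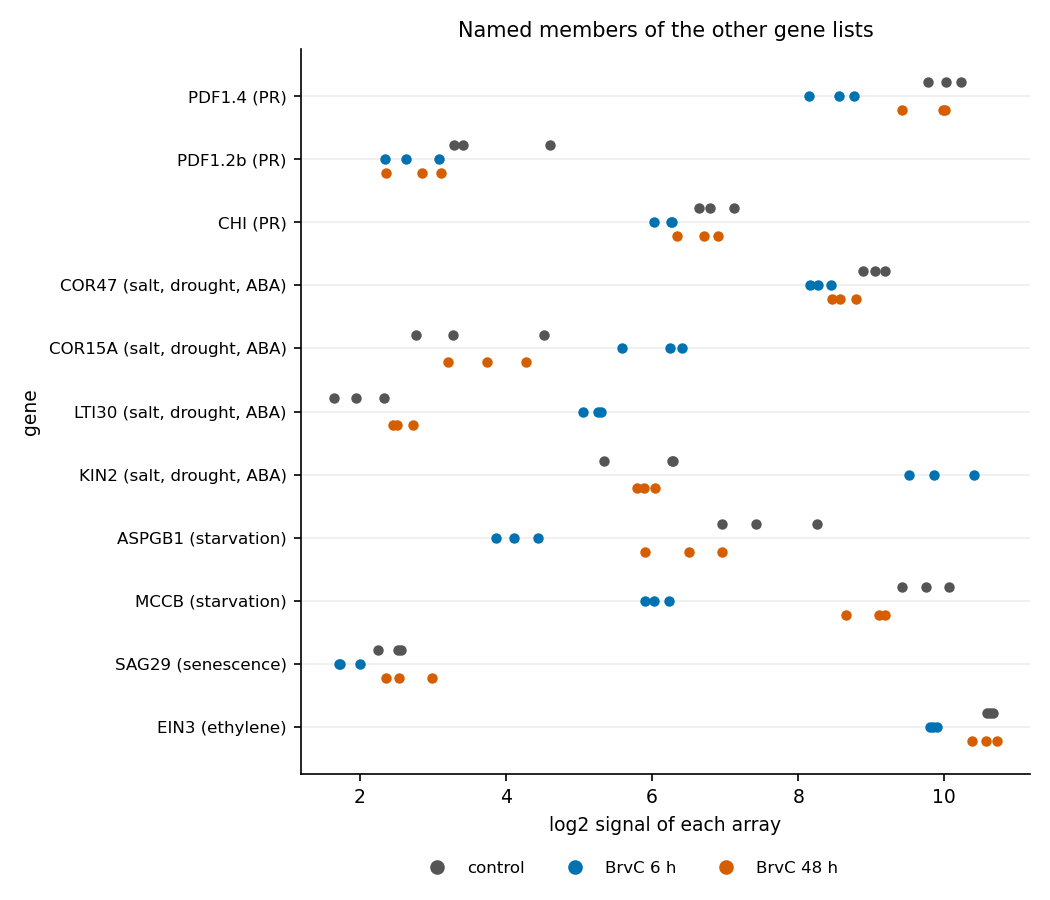
Log2 signal of every array (horizontal axis) for the named members of the other gene lists (rows, with the list in brackets), with control in grey, BrvC 6 h in blue and BrvC 48 h in orange. PDF1.4, EIN3, MCCB and ASPGB1 have their lowest arrays at 6 h, and KIN2, LTI30 and COR15A have their highest there.

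Among cell type markers, PRK and RCA had summed log2 signals of 16.06 to 16.43 in control, 15.48 to 16.41 at 6 h and 12.17 to 13.10 at 48 h. The sum hides opposite directions at 6 h. PRK differed from control by 0.30 with no call, and RCA fell by -0.58 (SE 0.18, limma adjusted p = 0.027). At 48 h PRK fell by -2.11 (SE 0.21, limma adjusted p = 2.89e-05) and RCA by -1.42 (SE 0.18, limma adjusted p = 0.000208). The guard cell factor FMA, 1 of 4 guard cell markers listed, had 5.47 to 5.92 in control, 6.82 to 7.04 at 6 h and 6.22 to 6.38 at 48 h. No marker of epidermis or phloem was measured. The part of cell composition in the profile of OSM34 was not tested.

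Genes with the most similar profile were found by a distance. Each gene's mean over the 9 arrays was subtracted, and the root mean square difference from OSM34 over the 9 arrays was taken on the log2 scale. The median distance of the other 16549 genes was 2.48. AT1G62760 was the nearest, at 0.44. It had 8.61, 9.39 and 9.92 in control, 4.97, 4.85 and 5.35 at 6 h, and 9.76, 10.04 and 9.95 at 48 h. Its 6 h arrays lay far below the others, and its control and 48 h arrays overlapped.

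The beta-glucosidase BGLU46 followed at a distance of 0.73, with 8.76, 9.54 and 8.64 in control, 4.90, 4.51 and 4.82 at 6 h, and 8.60, 8.66 and 8.55 at 48 h. The sugar transporter SWEET2 lay at 0.81, with 8.82, 9.32 and 10.10 in control, 5.38, 5.35 and 5.79 at 6 h, and 8.80, 9.30 and 10.02 at 48 h. In both genes the ranges of control and 48 h overlapped, and the 6 h arrays lay far below. AT1G19530 (0.82), AT5G64100 (0.88), AT5G38940 (0.90), AT5G02580 (0.90) and AT5G56100 (0.90) made up the rest of the 8 nearest genes. Their differences from control at 6 h ran from -3.87 to -3.11. At 48 h AT1G19530 stood above control by 2.24 (SE 0.25) and AT5G64100 by 1.54 (SE 0.43). The difference of AT5G64100 was 1.02 without control replicate 3, 1.28 or 1.39 without 48 h replicate 1 or 2, and 1.34 after centring. AT5G02580 had 0.69 (SE 0.26) at 48 h and AT1G62760 had 0.61 (SE 0.27). Without control replicate 3 these were 0.99 and 0.91. The 8 genes were chosen on these same values, so no test is attached to them.

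The nearest mirror image of OSM34 was PRN, a pirin of the cupin fold, at a distance of 0.36 after the sign was turned. It had 3.03, 2.83 and 3.25 in control, 7.85, 7.46 and 7.88 at 6 h, and 2.69, 2.93 and 2.92 at 48 h. It was high at 6 h alone, by 4.69 (SE 0.18) over control. AT4G20970 (0.54), AT4G30650 (0.61) and AT1G10585 (0.65) came next, and rose at 6 h by 4.85, 4.36 and 4.03. All 4 had control and 48 h means under the median of the table, where signals are compressed, so that the sizes of these rises and the distances are uncertain.

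**Figure D5:**
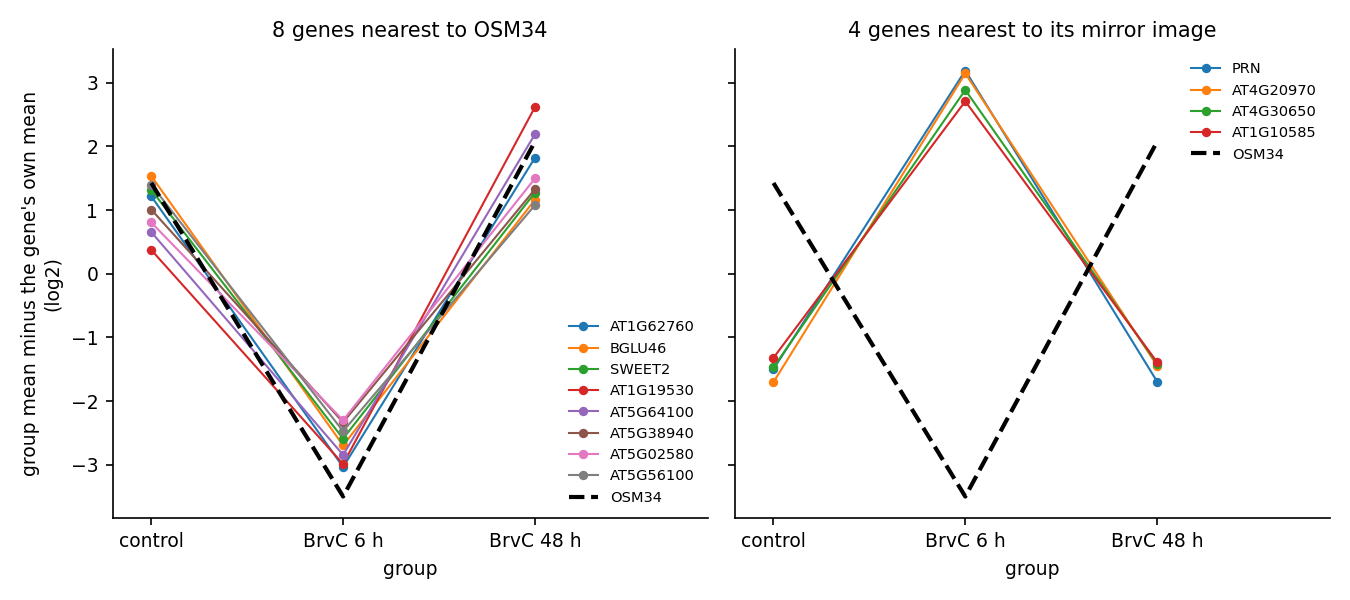
Group means minus the gene's own mean (vertical axis, log2) in control, BrvC 6 h and BrvC 48 h (horizontal axis) for the 8 genes nearest to OSM34 (left) and the 4 nearest to its mirror image (right), with OSM34 as the dashed line. The nearest genes dip at 6 h with OSM34, and PRN and the other mirror genes peak there.

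None of the 8 measured genes beside OSM34 in gene order was called lower at 6 h, beside 13.2% of all genes. However, 6 of the 8 did not pass the filter on low values, and a fall of the size of that of OSM34 could not appear at their signals. Gene order was taken from the reference table, and the 4 nearest measured protein-coding genes on each side were looked up after the profile was known. The neighbour on one side, SR, a serine racemase, had 2.31 ± 0.19 (SD, n = 3) in control, 2.84 ± 0.09 at 6 h and 2.01 ± 0.10 at 48 h. It rose at 6 h by 0.53 (SE 0.16, limma adjusted p = 0.0295). The neighbour on the other side, RALFL29, of the RALF signalling peptide family, had 2.53 ± 0.19 in control, 2.07 ± 0.10 at 6 h and 2.17 ± 0.12 at 48 h, with no call. Over the 8 neighbours the differences at 6 h ran from -0.46 to 0.53.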

How the data were processed

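The authors deposited 1 table of log2 signals, with a row per probe set and a column per array. Per the submitters' processing notes, the tools were oligo, RMA and limma, with no version stated. RMA subtracts background, aligns the distributions of the arrays and works on the log2 scale, on which small signals are compressed. The values, from 0.298 to 13.9, have the range of such a scale. For build and annotation the sources used here give nothing, and coordinates are left out.

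The probe table gave 1 gene for 16722 of 38408 rows, several for 759 and none for 20927. Where a gene had more than 1 row (146 genes), the row with the highest mean was kept. This left 16550 genes, of which 16411 were found in the RefSeq table (TAIR10.1). Group means were estimated with limma 3.58.1 (R 4.3.3) from the 9 arrays together, with two-sided tests, Benjamini-Hochberg adjustment over the 16550 genes and a threshold of 0.05. The fit was tested on simulated data. OSM34, the gene lists and the tests were chosen with earlier results of these data known. Named were OSM34, all measured relatives, up to 4 called members of each list by moderated F, the 8 nearest and 4 mirror genes, and the genes next to OSM34 in rank. A planned motif search in promoters was not run, since no sequence was used here. The number of arrays limits the precision.

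Replicate numbers recur in each group. Deviations from the group means correlated at 0.302, 0.242 and 0.539 between same-numbered arrays of control and 48 h, so that these pair by the rule of a correlation over 0.1 in every pair. The main fit has no block, so values for 48 h against control leave this pairing out unless a block is named. The correlation lay between -0.032 and 0.034 for control with 6 h, and between -0.051 and 0.102 for 6 h with 48 h, which leaves them unpaired. Alternatives were a replicate block, other scalings, filters, thresholds, spread models and array weights, fits to 2 groups, every row of the table, the mean of a gene's rows, and leaving out each array.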

Additional observations from a re-analysis of the deposited data

Results flagged for a closer look

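At 6 h every OSM34 array lay below all controls, and at 48 h every one lay above them, a difference of 5.58 between the times that was not tested, since the gene was chosen on these values. Among the other named genes, the only ones looked at for this, the same held for AT1G19530 (-3.36 at 6 h and 2.24 at 48 h), AT5G64100 (-3.50 and 1.54) and AT4G39675 (-2.04 and 3.38). The share of all genes with both features was not counted. Groups that do not overlap with control made up 40.3% of all genes at 6 h and 25.1% at 48 h. The differences of AT1G19530, AT5G64100 and AT4G39675 between 48 h and 6 h were 5.61, 5.04 and 5.42. Each had the same direction in 3 of 3 arrays against the other group. No test is attached to them, since these genes were named for their likeness to OSM34 or their rank beside it.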

How the results depend on the processing

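OSM34 kept the direction of all 3 differences under every alternative run. Leaving out single arrays gave -5.05 to -4.78 at 6 h, 0.53 to 0.79 at 48 h and 5.51 to 5.65 between the times. Centring each array on its median gave -5.29 and 0.45 against control, and it moved the median of all genes from -0.10 to -0.46 at 6 h, from -0.06 to -0.25 at 48 h and from 0.02 to 0.18 between the times. The rank at 6 h was 1 under every alternative except over all rows (16). The rank at 48 h was 5624 over all rows, 619 after renewed quantile normalization and 690 to 1642 without single arrays. Between the times it was 3 over all rows, 1 after renewed quantile normalization and 1 to 2 without single arrays. Of the 8 genes nearest to OSM34, 1 remained when each gene was scaled to an SD of 1, and 5 to 7 when single arrays were left out.

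The number of changed genes, 4531, 1762 and 3356 in the 3 comparisons, was 10484, 3824 and 6075 over all rows, and at a threshold of 0.01 it was 921 and 2083 in the last 2. After centring it was 8308 at 6 h. For 48 h against control it was 2134 with the replicate block on 9 arrays and 2312 with the block in the fit to 2 groups. The share of higher calls was 51.9% at 6 h, 51.0% at 48 h and 47.4% between the times. It was 64.0% at 6 h over all rows, 17.3%, 23.1% and 66.0% after centring, and 34.1% and 33.6% against control after renewed quantile normalization.

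The thaumatin-like count ran from 4 to 7 at 6 h and from 1 to 2 at 48 h without single arrays, and was 5 between the times after centring. The count of other PR proteins at 6 h was 1 at a threshold of 0.01 and 1 to 3 without single arrays. At 48 h it was 1, against 0, after centring, after renewed quantile normalization and with the replicate block in either fit, and 0 to 1 without single arrays. Between the times it was 2 with array weights. The salt list at 48 h had 1, against 0, without low genes, after centring and with array weights, and 0 to 1 without single arrays. The starvation list at 48 h had 0, against 2, over all rows, in the fit to 2 groups and at 0.01, 1 with array weights, and 0 to 1 without single arrays. The senescence list had 0, against 1, without low genes in both comparisons with 6 h arrays, 0 at 6 h at a threshold of 0.01, and 0 to 1 at 6 h without single arrays. The cause was not tested. Over 138 results of single genes, 36 of 2583 values under alternatives lost a call, 33 gained one and 0 reversed. These counts include the genes named for their likeness to OSM34 or their rank beside it, whose calls are not given. Among the other named genes, the replicate block changed no call other than that of PDF1.2b, given beside its result.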

Other observations

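When genes were compared by the shape of the profile alone, with each gene scaled to an SD of 1 over the 9 arrays, the nearest to OSM34 was CHAT, an acetyltransferase of leaf volatiles, followed by AT3G15770, AT4G16260, AT1G09740 and OASA2. CHAT had group means of 6.48 in control, 3.65 at 6 h and 6.96 at 48 h. AT4G16260 had 10.68, 7.59 and 11.20. Their falls at 6 h were -2.83 (SE 0.19) and -3.09 (SE 0.21), smaller than that of OSM34. AT1G62760 ranked 6 by shape and 1 by distance.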
